A study of Bos taurus with 18 samples.

Results

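PRG4 encodes lubricin, also called proteoglycan 4, and was 1 of the 16989 genes counted in 18 RNA-seq libraries of bovine mesenchymal stem cells (MSCs). The gene was picked by name, with earlier results of these libraries in view, so the differences between its own levels in the clones are given as a description without a test. Of the 18 libraries, 17 were clones, named A to Q, each a population grown out from a single marrow cell, and 1 was a heterogeneous population that had not been cloned. All came from the bone marrow of the same juvenile animal and were grown on plastic in DMEM with serum and antibiotics, without TGFβ or any other chondrogenic agent, until passage 1. Each clone was sequenced once. No clone therefore has a replicate error of its own, and errors below are the spread over clones.

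Lubricin is a large secreted glycoprotein with a long mucin-like stretch that carries many O-linked sugars. It coats the surface of articular cartilage, where chondrocytes of the superficial zone and cells of the synovial lining make it, and it also occurs in tendon. It lowers friction at the cartilage surface under load. In culture, TGFβ raises its expression in chondrocytes and the inflammatory cytokine IL-1 lowers it. It has been described as a ligand of CD44 and of Toll-like receptors 2 and 4.

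The libraries held 11484812 to 18458157 reads on genes. Levels are given as reads for each 1000000 reads on genes (CPM). A count of 0 allows up to 3 reads, which was 0.163 to 0.261 CPM depending on the library. Counting intervals are exact Poisson intervals at 95% and cover counting error only. Stromal genes chosen after their values were seen were present in every library, with ENG at 134 to 307 CPM, THY1 at 225 to 686 CPM and PDGFRB at 180 to 611 CPM. Clone N stood apart in its share of reads outside genes, 26.8%, which was the highest of all libraries. Clones Q and P, at 21.9% and 21.4%, lay inside the 18.8% to 24.8% of the other 14 clones.

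PRG4 was high in 3 clones and low in all others. Clone N had 8292 reads of PRG4 (602 CPM, interval 589 to 615). Clone Q followed with 2353 reads (162 CPM, interval 156 to 169) and clone P with 1105 reads (63.8 CPM, interval 60.1 to 67.7). These 3 libraries held 97.6% of the PRG4 reads of the clones. The level in clone N was 1235 times that in clone A, the lowest, which had 6 reads.

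The next clones were an order of magnitude lower. Clone J had 66 reads of PRG4 (4.65 CPM, interval 3.6 to 5.92) and clone K had 50 (3.63 CPM, interval 2.69 to 4.79). Clone M had 31 reads (1.68 CPM), clone D 18 (1.57 CPM), clone L 21 (1.5 CPM) and clone H 18 (1.13 CPM). Below these lay clone B with 14 reads (0.886 CPM), clone E with 13 (0.839 CPM), clone F with 12 (0.797 CPM) and clone I with 11 (0.797 CPM). Clones G and C had 10 reads each (0.744 and 0.708 CPM), clone O had 9 (0.572 CPM) and clone A had 6 (0.487 CPM, interval 0.179 to 1.06). PRG4 was counted in every library, and no library was below the limit of 3 reads.

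Neighbours in this order were compared by the ratio of their levels, with an exact binomial interval that again covers counting error only. Clone N exceeded clone Q by a ratio of 3.71 (interval 3.55 to 3.89), clone Q exceeded clone P by 2.54 (2.37 to 2.73) and clone P exceeded clone J by 13.7 (10.7 to 17.9). Clone K exceeded clone M by 2.16 (1.35 to 3.50). In the other 13 neighbouring pairs the interval of the ratio held 1, so J and K, and each library from M down to A and the next one below it, did not differ beyond counting error.

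**Figure D1:**
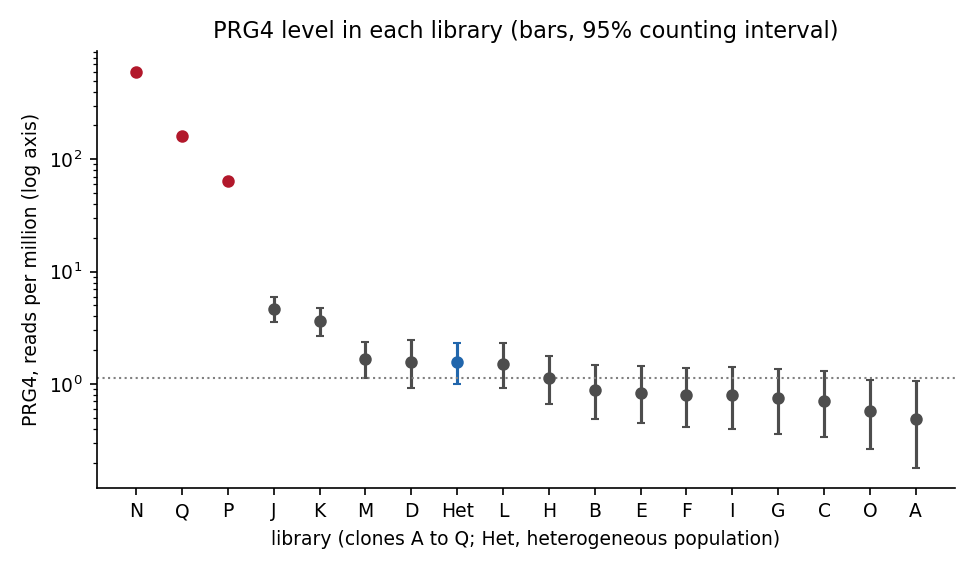
PRG4 in CPM (log axis) in each of the 18 libraries, ordered from high to low, with exact 95% Poisson intervals as bars and the median of the 17 clones (1.13 CPM) as a dotted line. Clones N, Q and P, in red, lie at 602, 162 and 63.8 CPM, above all other clones (0.487 to 4.65 CPM, grey), and the heterogeneous population, in blue, lies at 1.55 CPM among them.

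Few genes varied as much between clones. On the log2(CPM + 0.25) scale PRG4 had an SD of 2.91 over the 17 clones and a range of 9.67. The comparison covered 11477 genes that exceeded 1 CPM in any clone. Their median SD was 0.35, and 1 gene had a larger SD than PRG4. That gene was MGP (SD 3.02), which encodes matrix Gla protein, an inhibitor of calcification. The SD of PRG4 rested on the 3 high clones. Without clone N it was 2.25, with 5 genes above it, and over the 14 clones without N, P and Q it was 0.81, with 1129 of 11319 genes above it.

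**Figure D2:**
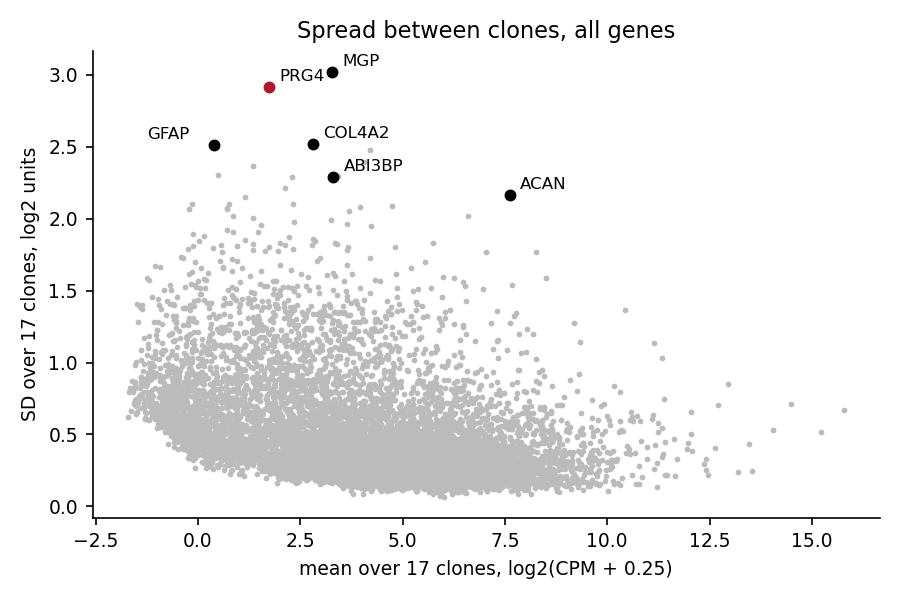
SD over the 17 clones (log2 units) against mean level (log2(CPM + 0.25)) for each of 11477 genes in grey, with PRG4 in red and 5 other genes in black. PRG4, at an SD of 2.91, lies below MGP (3.02) and above ACAN (2.16), while the median gene has an SD of 0.35.

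The heterogeneous population had 25 reads of PRG4 (1.55 CPM, interval 1.01 to 2.29). It lay below 7 clones and above 10, and close to the median of the clones, 1.13 CPM. The mean of the clones, 49.9 CPM, was 32.1 times as high, because it is set by clones N, Q and P. In edgeR's quasi-likelihood test across all genes PRG4 was -4.81 on the log2 scale in the heterogeneous population against the clones (standard error 4.96, adjusted p = 0.822), where 1.21% of genes were called higher and 0.00842% lower. Without clones N, P and Q the difference was 0.20 (standard error 0.97). A mixed culture is a bulk sample, in which few cells with much PRG4 and many cells with little cannot be told apart.

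Technical measures did not separate the high clones as a set, though clone N had the highest share of reads outside genes (26.8%). Total reads on genes were 13772875 in clone N, 14507239 in clone Q and 17319929 in clone P, all within the range of the others. The 10 most counted genes took 16% of the reads in N, 22.5% in Q and 21.9% in P, against 13.4% to 28.9% in the other 14 clones. Since PRG4 splits the clones into separated sets, correlations are given within the 14 other clones only and cannot speak to N, P or Q. There PRG4 had r = -0.0009 with total reads (permutation p = 0.997, rho = 0.152, p = 0.605, r = -0.0678 without the 2 farthest samples) and r = -0.0472 with the share of reads outside genes (permutation p = 0.873, rho = -0.125, p = 0.672, r = -0.398 without the 2 farthest samples). With the share of the 10 most counted genes r was 0.144 (permutation p = 0.623, rho = 0.266, p = 0.359, r = 0.163 without the 2 farthest samples). After Benjamini-Hochberg adjustment over the 3 measures these p-values were 0.997 for each r and 0.672 for each rho.

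In the RefSeq table of the ARS-UCD2.0 cattle assembly, PRG4 overlaps the end of its neighbour TPR, which encodes a protein of the nuclear pore. The table is of another assembly than the counts. TPR was level across the clones, at 196 CPM in N, 173 CPM in Q, 174 CPM in P and 125 to 213 CPM in the other 14 clones (slope on PRG4 0.00, standard error 0.01, adjusted p = 0.842). HMCN1, which encodes the matrix protein hemicentin 1 and lies on the other side, did not follow PRG4 (slope 0.01, standard error 0.09, adjusted p = 0.960). PTGS2, the inducible cyclooxygenase, lies a few genes further and did not pass the test either (slope -0.39, standard error 0.15, adjusted p = 0.0795), with 0 to 65 reads per library.

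To find the genes that followed PRG4, each gene's counts were fitted over the 17 clones against the log2(CPM + 0.25) of PRG4 with edgeR's quasi-likelihood test. The slope is the change of a gene, in log2 units, for each log2 unit of PRG4. Of 11332 genes tested, 1270 (11.2%) had an adjusted p under 0.05 and a positive slope, and 973 (8.59%) a negative one. The median slope of all genes was 0.00. These calls describe clones N, P and Q against the others to a large extent, since PRG4 spans 9.67 log2 units and only these 3 clones lie in its upper part. Without clone N the test called 696 genes higher and 548 lower, and without clone Q 749 and 463. Over the 14 clones without N, P and Q it called 0 of 11204 genes, where 1487 (13.3%) had an unadjusted p under 0.05 and the smallest adjusted p was 0.270. Of the 1270 and 973 genes, 425 and 300 were called in the same direction without N, without P and without Q.

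**Figure D3:**
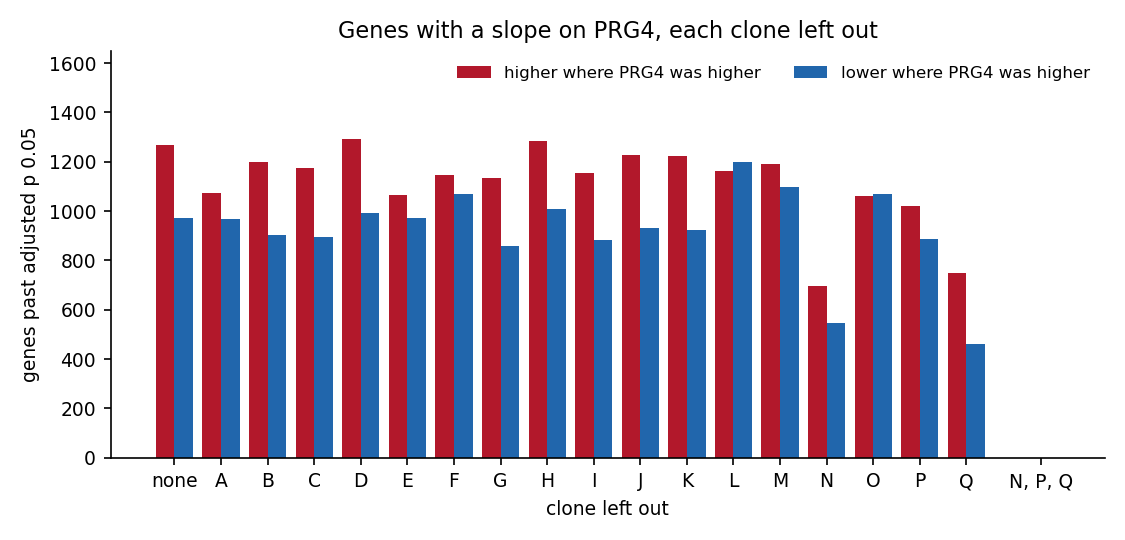
Number of genes with an adjusted p under 0.05 for a slope on PRG4 (edgeR quasi-likelihood), split into positive slopes (red bars) and negative slopes (blue bars), with no clone left out, with each clone left out in turn, and with clones N, P and Q left out together. The counts are 1270 and 973 with all 17 clones, are lowest without N (696 and 548) or Q (749 and 463) among the single clones, and are 0 without all 3.

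The 10 genes with the smallest p and a positive slope were highest in clones N, P and Q in 10 of 10 cases, which the choice by slope largely fixes. Over all genes this share was 5.33%. All 10 were called with any 1 clone left out. They included secreted and extracellular proteins. FBLN7, which encodes fibulin 7, a matrix glycoprotein, followed PRG4 in order and was at 42.4 CPM in N, 14 CPM in Q and 4.10 CPM in P. The other 14 clones had 0.212 to 3.41 CPM (median 0.486), with clone K the highest of them (slope 0.63, standard error 0.05, adjusted p = 7.73e-07). BMPER, a secreted regulator of BMP signalling, was at 41.8 CPM in N, 9.65 CPM in Q and 6.87 CPM in P, against 0 to 1.25 CPM elsewhere (slope 0.76, standard error 0.07, adjusted p = 2.74e-06). EDIL3, which encodes an integrin-binding secreted protein, was at 900 CPM in N, 918 CPM in Q and 484 CPM in P and did not exceed 249 CPM in another clone (slope 0.32, standard error 0.03).

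ANGPTL7, a secreted angiopoietin-like protein, had the steepest slope of these 10, with 4.21 CPM in N, 3.10 CPM in Q and 3.12 CPM in P. No other clone exceeded 0.145 CPM, which is below the limit of 3 reads (slope 0.84, standard error 0.07, adjusted p = 1.55e-06), and a slope fitted to such counts depends on the prior count. C4A, complement component 4, was at 36.4 CPM in N, 23.0 CPM in Q and 29.6 CPM in P, against 1.53 to 5.95 CPM in the other 14 clones, and its reads cannot be told from those of near-identical C4 copies. Other genes of the 10 encode proteins of the cell itself. SOCS2, a suppressor of cytokine signalling, was at 74.3 CPM in N, 36.1 CPM in Q and 21.4 CPM in P, against 4.74 to 13.1 CPM in the others. SOD2, the mitochondrial superoxide dismutase, was at 103.4, 51.4 and 29.3 CPM in the same clones, against 5.68 to 22 CPM. SLC38A6, of a family of amino acid transporters (slope 0.20, standard error 0.02, adjusted p = 7.73e-07), was at 68.6 CPM in N, 60 CPM in Q and 52.1 CPM in P, against 14.7 to 26.7 CPM. REV3L, the catalytic subunit of a translesion DNA polymerase, had a slope of 0.20 as well (standard error 0.02). It was at 64.6 CPM in N, 49.4 CPM in Q and 37.9 CPM in P, against 12.2 to 28.5 CPM. For KIAA1324L the slope was 0.56 (standard error 0.05). The heterogeneous population, with PRG4 at 1.55 CPM, exceeded all of the other 14 clones for REV3L (49.2 CPM), SLC38A6 (36.3 CPM) and SOD2 (26.9 CPM). For REV3L it was also above clone P. For the remaining genes of the 10 it lay within the range of those 14 clones.

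The 10 genes with the smallest p and a negative slope moved less. Their slopes ran from -0.22 to -0.07, and clones N, P and Q were the 3 lowest clones for 10 of 10, again largely by the choice of genes. Over all genes this share was 2.1%. All 10 were called with any 1 clone left out. TAGLN2, which encodes transgelin 2, was at 399 CPM in N, 299 CPM in Q and 470 CPM in P, against 512 to 1088 CPM in the other 14 clones (slope -0.16, standard error 0.02, adjusted p = 0.000103). MICAL2, an actin-oxidising enzyme, was at 134, 138 and 230 CPM in N, Q and P, against 314 to 624 CPM (slope -0.22, standard error 0.03). ARPC1A, a subunit of the Arp2/3 complex, was at 95.1, 99.1 and 106 CPM, against 109 to 167 CPM (slope -0.08, standard error 0.01). The others were PTPMT1, a mitochondrial phosphatase, HMG20B, PRKX, PPP1CA, the catalytic subunit of protein phosphatase 1, ADI1, CYP46A1 and FAM171A1. The heterogeneous population, with PRG4 at 1.55 CPM, lay within the range of clones N, P and Q for TAGLN2 (436 CPM) and ARPC1A (95.7 CPM). For the other 8 genes it was above all 3 of these clones, as for MICAL2 (252 CPM) and PTPMT1 (24.9 CPM).

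**Figure D4:**
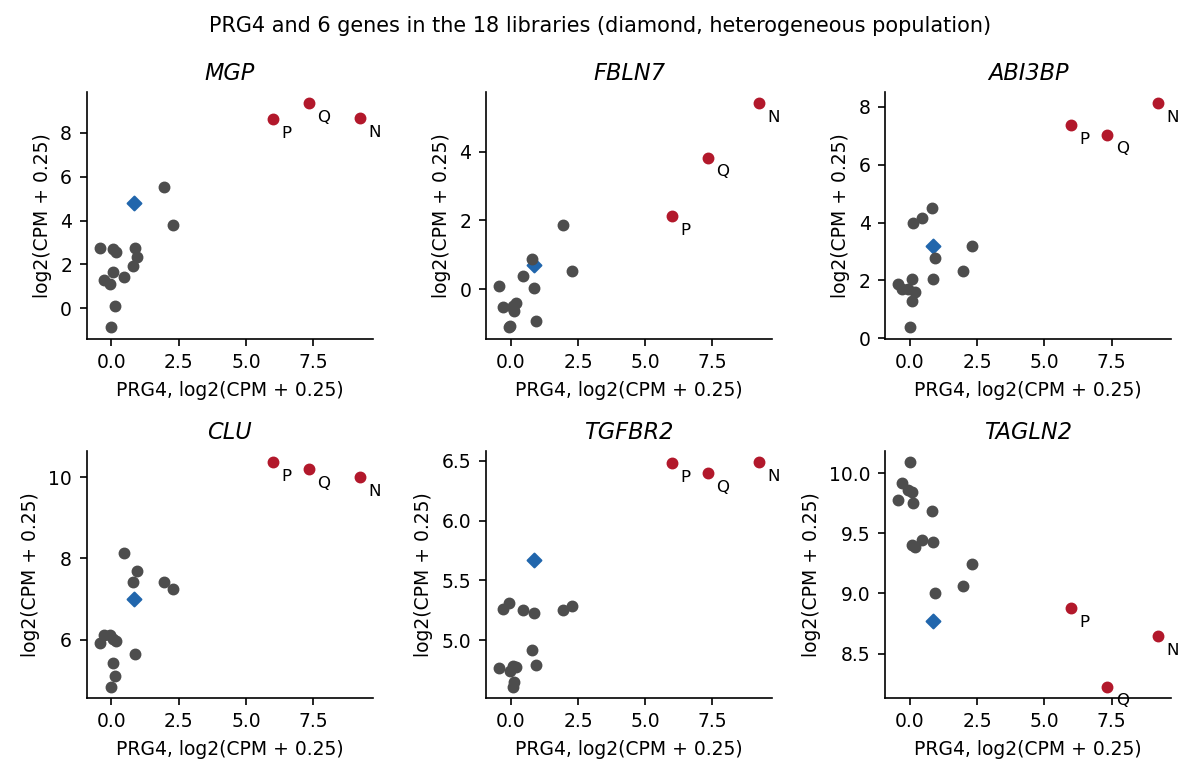
Levels of 6 genes against PRG4, both as log2(CPM + 0.25), in the 17 clones (circles, with N, P and Q in red) and the heterogeneous population (blue diamond). MGP, FBLN7, ABI3BP, CLU and TGFBR2 are higher in N, P and Q than in every other clone (MGP 390 to 651 CPM against 0.298 to 46.6 CPM), and TAGLN2 is lower (299 to 470 CPM against 512 to 1088 CPM).

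By rank correlation over the 17 clones, which gives the high clones no more weight than the others, the gene most like PRG4 was OSBPL1A (rho = 0.94, n = 17), which encodes an oxysterol-binding protein family member. It was at 53.7 CPM in N, 40.0 CPM in Q and 33.8 CPM in P, and at 19.6 to 34.9 CPM in the other 14 clones, so its levels overlapped. Over those 14 clones alone its rho with PRG4 was 0.92. ABCC5, an export pump of the ABC family, had rho = 0.94 (0.89 over the 14 clones), TAOK3, a kinase, 0.93 (0.91), FMO4, a flavin monooxygenase, 0.93 (0.87) and SNX7, a sorting nexin, 0.92 (0.87). CCDC171, RGL1, AKR1E2, FAM115A and HBP1 had rho from 0.92 to 0.91. Of these 10 genes, 9 also passed the slope test and 5 did so with any 1 clone left out. OSBPL1A was not called without clone N (adjusted p = 0.108). Their slopes were shallow, from 0.06 for TAOK3 to 0.20 for RGL1. These values are a description, with all points from cells of 1 animal and with PRG4 counted at 6 to 66 reads in the 14 clones.

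Genes named with the joint surface, a site where lubricin is made, were set against PRG4 as a list. This list, like those below, was written with earlier results of these data known, so its counts are a description. Of its 16 genes 15 were tested, 6 were higher where PRG4 was higher (background 11.2%), 0 were lower (background 8.59%) and 9 did not pass. The median slope was 0.11, against 0.00 over all genes, and 6, 5 and 5 were called higher without N, P and Q in turn. Over the 14 clones without all 3 of them 0 were called, with a median slope of 0.16. ABI3BP, a matrix protein, was at 280 CPM in N, 131 CPM in Q and 166 CPM in P, against 1.04 to 22.5 CPM in the other 14 clones (slope 0.66, standard error 0.07, adjusted p = 2.20e-05). CLU, the secreted chaperone clusterin, was at 1016, 1174 and 1313 CPM, against 28.5 to 282 CPM (slope 0.52, standard error 0.07).

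CILP, a protein of the cartilage intermediate layer, was at 5.81 CPM in N, 18.8 CPM in Q and 26.2 CPM in P, against 0.372 to 4.07 CPM elsewhere (slope 0.62, standard error 0.09). In contrast to PRG4, clone P was the highest for CLU and CILP. Transcription factors were among the called genes too. CREB5, which is known to act on PRG4 in superficial chondrocytes, was at 7.55 CPM in N, 7.65 CPM in Q and 5.49 CPM in P, against 1.33 to 4.35 CPM in the others (slope 0.20, standard error 0.03, adjusted p = 0.000526). OSR2, a factor of joint development, was at 17.6, 20 and 13.3 CPM, against 2.27 to 5.45 CPM (slope 0.30, standard error 0.03). FOXO3 had an adjusted p of 0.0498 by the same test and was called in 2 of the 17 fits that each left out 1 clone (slope 0.08, standard error 0.03).

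The members of this list that did not pass included known joint genes. The slope of ERG, a transcription factor of the articular lineage, was 0.06 (standard error 0.05, adjusted p = 0.476), and that of FOXO1 was 0.04 (standard error 0.03, adjusted p = 0.419). DPT was at 1.79 to 3.38 CPM in N, P and Q, against 0.522 to 54.1 CPM in the other 14 clones. SFRP2 was at 0.581 to 3.93 CPM, against 0 to 13.9 CPM. Of the 15 tested genes 12 had a positive slope. GDF5, a ligand that marks the joint interzone, was not tested, with 0 to 26 reads per library. It was listed at 0 in clone N, the clone with the most PRG4, and was at 1.5 CPM in P and 0.827 CPM in Q, above the 0 to 0.141 CPM of the other 14 clones.

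**Figure D5:**
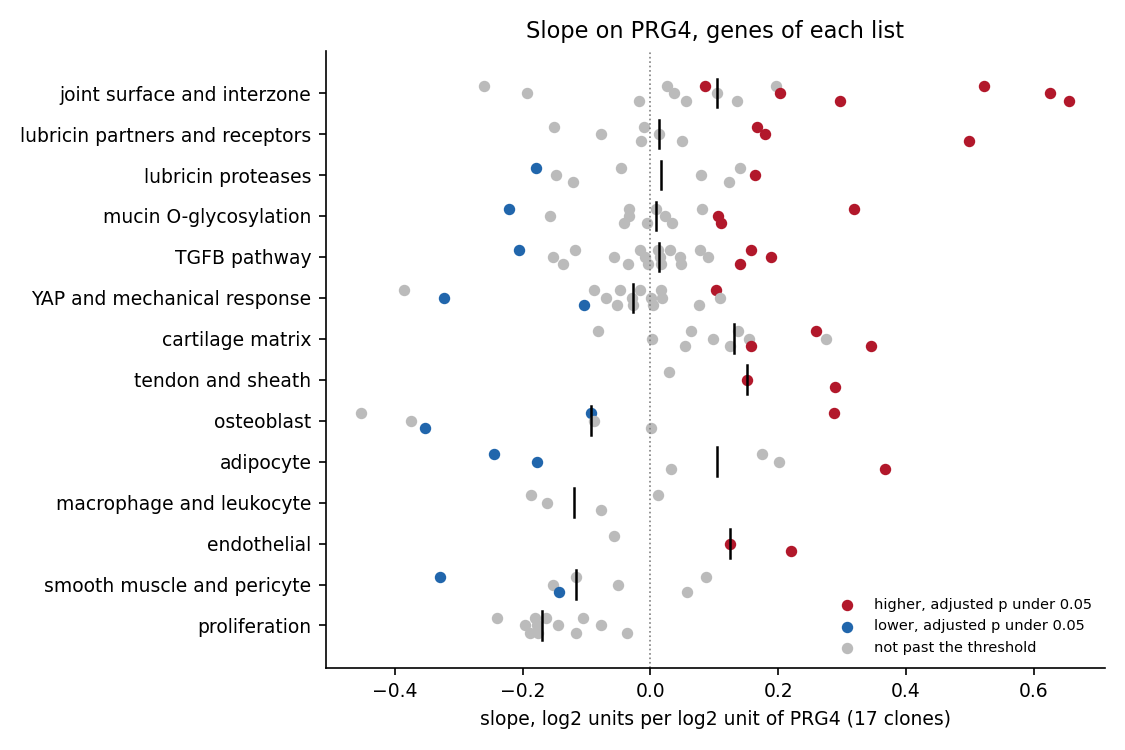
Slope of each tested gene on PRG4 over the 17 clones, in log2 units for each log2 unit of PRG4, by gene list, with the median of each list as a black line. Red points were called with a positive slope and blue points with a negative one (adjusted p under 0.05), as were 11.2% and 8.59% of all genes. The joint surface list has 6 red points of 15 and no blue one, and the proliferation list has 0 called of 12 and a median of -0.17.

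Of the binding partners and receptors of lubricin, 9 of 13 were tested, 3 were higher and 0 lower, beside 11.2% and 8.59% of all genes, with a median slope of 0.01 (-0.10 over the 14 clones without N, P and Q). COMP, a cartilage matrix protein that binds lubricin, was at 56.3 CPM in N and 41.1 CPM in Q. In P it was at 3.70 CPM, inside the 0.149 to 6.66 CPM of the other clones (slope 0.50, standard error 0.08, adjusted p = 0.000412). FN1, fibronectin, was at 54691 CPM in N, 47911 CPM in Q and 61827 CPM in P, against 11797 to 29096 CPM elsewhere (slope 0.18, standard error 0.04). TLR4 was at 19.1, 15 and 6.35 CPM in the same clones, against 3.12 to 10.3 CPM (slope 0.17, standard error 0.04, adjusted p = 0.00611, and 0.0895 without clone N). Neither CD44 (slope -0.01, standard error 0.03, adjusted p = 0.778) nor TLR2 (slope -0.15, standard error 0.07, adjusted p = 0.125) passed.

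Of the 14 genes of the protease list 8 were tested, 1 was higher and 1 lower, close to the shares over all genes (11.2% and 8.59%). The median slope was 0.02, and -0.18 over the 14 clones without N, P and Q. CTSB, the lysosomal protease cathepsin B, was at 1398 CPM in N, 1955 CPM in Q and 2025 CPM in P, against 520 to 1369 CPM (slope 0.16, standard error 0.03). PLAU, the urokinase plasminogen activator, was at 70.1, 57.2 and 55.2 CPM, below the 76.7 to 246 CPM of the other 14 clones (slope -0.18, standard error 0.03). CTSS, a protease that can cleave lubricin, was at 95.3 CPM in N, 58.3 CPM in Q and 36.5 CPM in P, against 10.6 to 61.8 CPM (slope 0.14, standard error 0.05, adjusted p = 0.0671). The neutrophil proteases CTSG and ELANE had 0 reads in every library.

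Enzymes that build mucin-type O-linked sugars gave 3 higher and 1 lower of 13 tested among 21 listed, beside 11.2% and 8.59% of all genes, with a median slope of 0.01 (-0.10 over the 14 clones without N, P and Q). GALNT5, which starts such chains, was at 26.2 CPM in N, 14 CPM in Q and 5.08 CPM in P, against 0.522 to 5.85 CPM (slope 0.32, standard error 0.05). C1GALT1, which makes the core 1 structure, was at 76.3 CPM in N and 44.4 CPM in Q but at 24.8 CPM in P, within the 18 to 36 CPM of the others (slope 0.11, standard error 0.03, adjusted p = 0.00793), and without clone N its adjusted p was 0.393. GCNT1, a core 2 branching enzyme, was lower (slope -0.22, standard error 0.05, adjusted p = 0.00663). B4GALT1 had an adjusted p of 0.0417 and was called in 7 of the 17 fits that each left out 1 clone. C1GALT1C1, the chaperone of C1GALT1, did not pass (slope 0.02, standard error 0.02, adjusted p = 0.488).

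In the TGFβ pathway, which raises PRG4 in chondrocytes, 20 of 20 genes were tested and 3 were higher, beside 11.2% of all genes. The median slope was 0.01. The type II receptor TGFBR2 was at 89.3 CPM in N, 84.0 CPM in Q and 88.8 CPM in P, a near equal level in clones whose PRG4 ran from 63.8 to 602 CPM. The other 14 clones had 24.2 to 39.4 CPM (slope 0.19, standard error 0.02, adjusted p = 7.39e-06). The ligand TGFB3 was at 22.4, 45.6 and 51.1 CPM in N, Q and P, against 9.81 to 24.9 CPM (slope 0.14, standard error 0.03, adjusted p = 0.00847, and 0.0750 without clone Q). LTBP3, a latency protein, was also called (slope 0.16, standard error 0.04, adjusted p = 0.0179), but not without clone N (adjusted p = 0.130). TGFB1 (slope -0.12, standard error 0.05, adjusted p = 0.101), TGFBR1 (slope 0.05, standard error 0.02, adjusted p = 0.161) and SMAD7 (slope -0.06, standard error 0.03, adjusted p = 0.229) did not pass.

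The list for YAP and mechanical responses gave 1 higher and 2 lower of 17 tested, close to the shares over all genes (11.2% and 8.59%). The median slope was -0.03. WWTR1, which encodes TAZ, was at 199 CPM in N, 139 CPM in Q and 169 CPM in P, against 66.6 to 137 CPM (slope 0.10, standard error 0.02). The lower genes were FOS (slope -0.32, standard error 0.09) and TEAD4 (slope -0.10, standard error 0.03). The adjusted p of FOS was 0.0606 without N, 0.0514 without P and 0.0897 without Q, and that of TEAD4 was 0.138 without N and 0.103 without Q. YAP1 (slope 0.02, standard error 0.02, adjusted p = 0.601) and its targets CTGF (0.08, standard error 0.05, adjusted p = 0.295) and CYR61 (-0.07, standard error 0.04, adjusted p = 0.188) did not pass.

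Cartilage matrix genes gave 3 higher and 0 lower of 12 tested among 18 listed, beside 11.2% and 8.59% of all genes. The median slope was 0.13, and turned to -0.14 over the 14 clones without N, P and Q. HAPLN1, the link protein that ties aggrecan to hyaluronan, was at 132 CPM in N, 111 CPM in Q and 62.7 CPM in P, against 5.51 to 40.1 CPM (slope 0.35, standard error 0.06, adjusted p = 0.00114). The others were SOX5, a cofactor of SOX9 (slope 0.16, standard error 0.03), and MIA (slope 0.26, standard error 0.06, adjusted p = 0.00702, and 0.0589 without clone Q). Aggrecan, the main proteoglycan of cartilage, did not pass (slope of ACAN 0.28, standard error 0.11, adjusted p = 0.0851). ACAN was highest in clone N, at 3032 CPM, and was at 1348 CPM in Q and 762 CPM in P. It was also at 1437 CPM in clone O, where PRG4 was at 0.572 CPM. COL2A1, the collagen of hyaline cartilage, did not follow PRG4 (slope 0.00, standard error 0.15, adjusted p = 0.992) and reached its highest level, 1287 CPM, in clone O. SOX9, the main transcription factor of chondrocytes, did not pass (slope 0.10, standard error 0.07, adjusted p = 0.312).

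Of 10 tendon and sheath genes 3 were tested and 2 were higher, beside 11.2% of all genes. COL14A1, a collagen of fibril surfaces in tendon and skin, was at 1104 CPM in N, 950 CPM in Q and 889 CPM in P, against 87.9 to 296 CPM in the other 14 clones (slope 0.29, standard error 0.04, adjusted p = 5.16e-05). FMOD, the small proteoglycan fibromodulin, was at 8195, 10583 and 6764 CPM, against 1836 to 5790 CPM (slope 0.15, standard error 0.04, adjusted p = 0.0120, and 0.0898 without clone Q). MKX, the other tested gene, did not pass. It was at 73.8 CPM in N, 139 CPM in Q and 95.4 CPM in P, against 44.9 to 123 CPM in the other 14 clones. THBS4, which was not tested, was at 0.363, 0.138 and 0.231 CPM in N, Q and P and highest in clone M, at 4.82 CPM. The tendon gene TNMD had 0 reads in every library, as TNXB, CHODL and EGR2 did.

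Markers of other cell types were examined in the same fit. The osteoblast list gave 1 higher and 2 lower of 7 tested, beside 11.2% and 8.59% of all genes. SP7, the osteoblast transcription factor osterix, was at 5.74 CPM in N, 6.20 CPM in Q and 9.30 CPM in P, against 7.15 to 75.3 CPM in the others (slope -0.35, standard error 0.07, adjusted p = 0.00332). RUNX2 was at 81.8, 64.1 and 76.7 CPM, against 81.8 to 164 CPM (slope -0.09, standard error 0.03), and PHEX was higher (slope 0.29, standard error 0.07). The adjusted p of RUNX2 was 0.0923 without clone Q and that of PHEX 0.0653 without clone N. The adipocyte list gave 1 higher and 2 lower of 6 tested, beside the same shares of all genes. FABP4 was at 85.5 CPM in clone N (slope 0.37, standard error 0.07, adjusted p = 0.00149) and its adjusted p was 0.172 without that clone. The 8 listed genes summed to 143.4 CPM in N, 45.4 CPM in Q and 32.8 CPM in P, against 26.7 to 63.5 CPM elsewhere. ADIPOQ and LPL were highest in N, at 27.95 and 15.03 CPM, against up to 10.58 and 10.46 CPM in the other 14 clones. In Q and P both lay inside the range of those clones. Neither passed (ADIPOQ slope 0.20, standard error 0.08, adjusted p = 0.0773, LPL slope 0.18, standard error 0.07, adjusted p = 0.0781). PPARG, the adipocyte nuclear receptor (slope -0.25, standard error 0.07), and CEBPA (slope -0.18, standard error 0.05) were lower. PPARG lost its call without P (adjusted p = 0.0555) or Q (0.0981), and CEBPA without N (0.230), P (0.0539) or Q (0.0710).

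In the smooth muscle and pericyte list 0 were higher and 2 lower of 7 tested, beside 11.2% and 8.59% of all genes. The median slope was -0.12 and turned to 0.02 over the 14 clones without N, P and Q. ACTA2, smooth muscle actin, was at 578 CPM in N, 468 CPM in Q and 721 CPM in P, against 1151 to 6048 CPM in the other 14 clones (slope -0.33, standard error 0.08, adjusted p = 0.00687). TAGLN, transgelin, was at 1488, 1195 and 1625 CPM, against 1800 to 3791 CPM (slope -0.14, standard error 0.04, adjusted p = 0.0122, and 0.0679 without clone Q). The list summed to 3003 CPM in N, 2278 CPM in Q and 3463 CPM in P, below the 4486 to 10762 CPM of the other clones. ACTA2 and TAGLN made up most of this sum, and the 5 other tested genes did not pass. DES was at 56.7 CPM in N, 54.5 CPM in Q and 367 CPM in P, against 30.7 to 357 CPM. CNN1 was at 114, 82.2 and 127 CPM, against 122 to 420 CPM. MYH11, MCAM and CSPG4 lay inside the range of the other 14 clones in N, Q and P. The part of this list in the slopes of other genes was not tested.

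Blood and vessel markers were low in the clones, with LAPTM5, a lysosomal protein of leukocytes, at 8.13 CPM in N, 3.45 CPM in Q, 4.50 CPM in P and 1.04 to 25.7 CPM in the others. The macrophage and leukocyte list gave 0 called of 4 tested, beside 11.2% of all genes higher and 8.59% lower. Its 14 genes summed to 13.9 CPM in N, 7.65 CPM in Q and 7.56 CPM in P. These lay within the 3.41 to 29.5 CPM of the other clones, against 219 CPM in the heterogeneous population. Of the endothelial list, CDH5, CLDN5 and ESAM had 0 reads in every library. VWF and TEK were the 2 called of 3 tested, both higher, beside 11.2% of all genes. PECAM1, the other tested gene, had a negative slope and did not pass. It was at 0.436 CPM in N, 0.758 CPM in Q and 1.33 CPM in P, inside the 0.1625 to 2.93 CPM of the other clones. The list summed to 9.58 CPM in N, 6.48 CPM in Q and 7.27 CPM in P, above the 1.65 to 5.86 CPM of the other clones. In the heterogeneous population, where PRG4 was low, the sum was higher still, at 12.3 CPM. VWF made up most of the sum in clones N, Q and P, at 6.75, 3.38 and 4.50 CPM. TEK was at 2.40, 2.21 and 1.39 CPM in these clones (slope 0.22, standard error 0.05, adjusted p = 0.00342). VWF had an adjusted p of 0.0242, which was 0.247 without clone N and 0.0601 without clone P.

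Proliferation genes had negative slopes in 12 of 12 tested, with a median of -0.17. By the edgeR test 0 passed, beside 8.59% of all genes called lower. Over the 14 clones without N, P and Q the median was -0.78, and again 0 passed. Among them were MKI67 (slope -0.20, standard error 0.11, adjusted p = 0.235) and RRM2 (slope -0.24, standard error 0.12, adjusted p = 0.164). The list summed to 463 CPM in N, 317 CPM in Q and 585 CPM in P, within the 112 to 2339 CPM of the other clones.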

How the data were processed

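Poly-adenylated RNA of 17 clones and 1 heterogeneous population was sequenced by the authors with 50-bp single-end reads, aligned to bosTau7 with STAR (2.3.0e per the labels) and counted with HTSeq on RefSeq annotation release 103. The deposited values are raw counts per gene, without normalization. The HTSeq version and strand setting are not given in the sources used here. The 5 tally lines that name no gene (18.8% to 26.8% of each file lay outside genes) stayed out of totals, and the files list 0 reads as not uniquely aligned. A deposited table of the series held the same counts, with 0 of 305892 cells differing.

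PRG4 was described by counts, CPM and log2(CPM + 0.25). Genes were tested with edgeR 4.0.16 (TMM, filterByExpr, glmQLFit, glmQLFTest) in R 4.3.3 against the log2 level of PRG4 over the 17 clones, with PRG4 left out of the response, and with the single heterogeneous library against the clones, assumed to vary as they do. Benjamini-Hochberg adjustment ran over all genes tested, and 0.05 was the threshold. Alternatives used DESeq2 1.42.0, limma 3.58.1, permutation tests with 100000 resamples (two-sided), other scalings, filters and pseudocounts, and each clone left out. Tests were tried on simulated counts. Intervals and permutations were computed with scipy 1.17.1 in Python 3.11.15, tables were handled with pandas 2.3.3 and numpy 2.4.6, and plots were drawn with matplotlib 3.10.9.

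Genes named are those of 14 lists, the 10 with the smallest p in each direction, the 10 with the largest rho with PRG4, its neighbours, and others said to be chosen later. PRG4 and the lists were chosen with earlier results of these data known. In the files 15471 of 16989 symbols match the ARS-UCD2.0 RefSeq table, used for names and neighbours only. P-values measure the spread between clones of 1 animal. The result of 1 gene of the TGFβ list is not reported here. GAG/DNA of pellets and gene lengths were not analysed here, so levels are not compared between genes.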

Additional observations from a re-analysis of the deposited data

How the results depend on the processing

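The SD of PRG4 over the clones was 2.91 log2 units, and 2.25 to 3.01 with each clone left out in turn. It was 2.62 and 3.03 with pseudocounts of 1 and 0.05 and 2.88 with either TMM library sizes or DESeq2 size factors, and leaving out clones N, P and Q together, chosen after seeing the data, gave 0.81. The number of genes with a slope on PRG4, 2243, ran from 1212 to 2364 with each clone left out (696 to 1292 higher and 463 to 1200 lower). It was 0 without clones N, P and Q, both higher and lower, and 1470 by Spearman permutation. Of the lower genes the Pearson and Spearman permutations called 537 and 415. DESeq2 called 2712 genes, 1337 higher and 1375 lower, where edgeR had called 1270 and 973. Of 74 named genes that passed, all 74 kept their call with DESeq2 and with DESeq2 size factors, 73 with limma or with no filter and 71 with the heterogeneous population added, and 36 lost it by Spearman permutation. Of 69 of them that could be tested without N, P and Q, 0 passed and 7 changed sign, to 0.0857 for FAM171A1, -0.0884 for GPR126, -0.17 for GALNT5, -0.0485 for C1GALT1, -0.24 for MIA, 0.16 for CEBPA and 0.0475 for ACTA2. PRG4 in the heterogeneous population went from -4.81 to 0.20 there, and was -0.79 by limma. Its r over the 14 other clones, -0.0009 with total reads, -0.0472 with the share outside genes and 0.144 with the share of the 10 most counted genes, had the opposite sign to r over all 17. Those were 0.0728, 0.536 (permutation p = 0.0295, adjusted p = 0.0886) and -0.0816, and each joins separated sets of clones. The second was 0.243 without the 2 farthest samples. No paired analysis was possible because each clone is a separate population that was sequenced once. Depth limits PRG4 below clone K, where counts of 6 to 31 reads do not resolve neighbours in the order.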

Other observations

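Clones N, P and Q were above all other clones in 612 of 11477 genes (5.33%) and below all of them in 241 (2.10%). The distance between the lowest of the 3 and the highest other clone was 3.71 log2 units for PRG4, whose own values singled these clones out. The 10 genes next to PRG4 by this distance, named after their values were seen, included MGP, at 410 CPM in N, 651 CPM in Q and 390 CPM in P against 0.298 to 46.6 CPM in the other 14 clones. GFAP, listed under the name of a glial filament gene, was at 17.4, 32.5 and 45.8 CPM in N, Q and P, against 0 to 2.68 CPM. F5, coagulation factor V, was at 17.4, 22.6 and 35.7 CPM, against 0.0715 to 2.07 CPM. LYVE1, a hyaluronan receptor known from lymphatic endothelium, was at 27.9, 19.4 and 18.2 CPM, against 0.372 to 3.29 CPM. GPR126, an adhesion receptor, was at 38.9, 37.9 and 33.7 CPM, against 0.564 to 6.03 CPM. CCRL1, an atypical chemokine receptor, SLC16A9 and SAA3, of a family with similar copies, were each at 8.89 CPM or less in all clones. The genes were picked for this distance, so it carries no test.

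Among the 14 clones other than N, P and Q, where PRG4 was counted at 6 to 66 reads, the gene of most opposite rank was CSPG4 (rho = -0.93, n = 14), chosen after its values were seen and given without a test. CSPG4, the surface proteoglycan NG2 of pericytes, was at 445 CPM in clone J and 413 CPM in K, which had the most PRG4 of the 14, and at 1082 CPM in O and 980 CPM in A, which had the least. CSPG4 did not set clones N, Q and P apart, at 742, 467 and 607 CPM. Over the 17 clones edgeR gave CSPG4 a slope on PRG4 of -0.05 (standard error 0.04, adjusted p = 0.334).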
